A study of Mus musculus with 9 samples.

Results

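The BCL2 family decides whether the outer mitochondrial membrane stays intact when a cell is stressed. Members of the family are divided by what they do: anti-apoptotic proteins hold the membrane closed, the effectors BAX and BAK1 open it, and the BH3-only proteins, which carry a single BCL2 homology domain, relay stress signals by binding to the other members. Once the membrane is opened, cytochrome c leaves the mitochondria, the apoptosome assembles and caspases are activated. In macrophages, which store lipid and become foam cells in the vessel wall, MCL1 and BCL-XL are known as survival factors and CHOP (*Ddit3*) as a link between endoplasmic reticulum stress and death.

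Transcript levels of 10 of these genes were followed in macrophages given lipid emulsion particles. They comprised the anti-apoptotic *Bcl2*, *Bcl2l1* (BCL-XL) and *Mcl1*, the effectors *Bax* and *Bak1*, and the BH3-only genes *Bcl2l11* (BIM), *Bbc3* (PUMA), *Pmaip1* (NOXA), *Bid* and *Bad*. The genes were chosen by name, found through their Ensembl identifiers, and make up 10 of the 54432 genes in the count table. All 10 were among the 12637 genes tested, which needed over 10 counts in 3 or more libraries. RNAseq was performed on RAW 264.7 cells, a mouse line of macrophage-like cells from a virus-induced tumour. Control cells (CTRL) were left untreated, whereas the other cells received 1 mM VLDL-sized (VLDLsep) or 1 mM chylomicron-sized emulsion particles (CHYL-sized, CHYLsep) for 6 hours, after which they were washed. The study is not uniform on the CHYL-sized dose, since one description of the RNAseq data gives a lower dose than the labels and methods, and the labels were followed. Each group had 3 libraries, and each library was 1 pool of the samples of that condition from 1 experiment. All groups came from this single line, without primary macrophages, and p-values measure the spread between such pools.

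The libraries had nearly equal depth, between 22393893 and 22856792 estimated counts. Macrophage identity was clear in all of them: each of the 10 macrophage markers was detected, with *Cd68* at 928 ± 19 counts-per-million (cpm; SD, n = 3) and *Csf1r* at 1351 ± 54 cpm in the control cells, whereas *Cd8a*, *Epcam* and *Col3a1* had no count in any library. Other markers of such cells were counted at low levels. The fibroblast marker *Pdgfra* had 30 to 55 counts in a library, and the endothelial *Cdh5* and *Pecam1* had 11 to 29 and 3 to 18. Summed levels reached at most 2.5 cpm for fibroblast, 1.97 for endothelial, 0.34 for T cell and 0.17 for B cell markers. The summed level of the macrophage markers lay between 6946 and 7032 cpm in CTRL, between 6197 and 6398 cpm with VLDL-sized and between 6379 and 6587 cpm with CHYL-sized particles. Of these 10 markers, 6 were lower and 1 was higher with VLDL-sized particles, beside 17.9% and 17.8% of all genes tested. With CHYL-sized particles 3 were lower, beside 13.0% of all genes tested. With VLDL-sized particles *Fcgr1* fell from 70.1 to 39.2 cpm and *Cd14* from 821 to 566 cpm. *Ptprc*, *Spi1*, *Itgam* and *Lyz2* were also lower, and *Cd68* was higher. The part of these changes in the results was not tested. The libraries of replicate 3 stood apart from those of replicates 1 and 2 in each group: the chi-square per degree of freedom between libraries of a group was 12.2 to 15.4 for pairs with replicate 3 and 3.41 to 5.10 for the other pairs. Counts of members that passed the test are therefore also given without replicate 3.

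The promoters of *Bcl2*, *Bcl2l1*, *Bcl2l11* and *Bbc3* are shown here, because *Bcl2* and *Bcl2l1* fell with both particles, *Bcl2l11* rose with VLDL-sized and *Bbc3* fell with CHYL-sized particles. That of *Bax*, which rose with CHYL-sized particles, was searched but is not printed. RefSeq windows of GRCm38.p6, from 250 bases before to 50 bases after a transcription start, were matched for 9 of the 10 members, 15 windows in all, and *Pmaip1* was not among them. The 4 sequences are the 250 bases before a start, written 5′ to 3′ along the gene's strand, and none overlapped an annotated exon. Capitals mark the FOXO motif TGTTTAC on either strand.
*Bcl2*, chr1:106714291-106714540, minus strand: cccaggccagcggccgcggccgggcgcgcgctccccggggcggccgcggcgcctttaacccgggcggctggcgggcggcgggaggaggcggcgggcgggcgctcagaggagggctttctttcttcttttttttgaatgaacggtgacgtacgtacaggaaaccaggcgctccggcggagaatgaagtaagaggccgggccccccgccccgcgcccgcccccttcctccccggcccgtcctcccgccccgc
*Bcl2l1*, chr2:152831729-152831978, minus strand: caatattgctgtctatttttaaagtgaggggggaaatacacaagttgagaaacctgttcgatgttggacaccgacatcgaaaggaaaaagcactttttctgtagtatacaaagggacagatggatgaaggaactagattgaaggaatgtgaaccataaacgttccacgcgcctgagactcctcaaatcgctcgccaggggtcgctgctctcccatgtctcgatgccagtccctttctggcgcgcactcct
*Bcl2l11*, chr2:128125788-128126037, plus strand: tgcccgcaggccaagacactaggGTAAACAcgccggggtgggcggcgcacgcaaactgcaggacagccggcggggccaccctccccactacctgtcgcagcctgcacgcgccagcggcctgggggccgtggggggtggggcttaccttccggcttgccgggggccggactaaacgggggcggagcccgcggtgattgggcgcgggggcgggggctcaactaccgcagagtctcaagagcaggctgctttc
*Bbc3*, chr7:16310011-16310260, plus strand: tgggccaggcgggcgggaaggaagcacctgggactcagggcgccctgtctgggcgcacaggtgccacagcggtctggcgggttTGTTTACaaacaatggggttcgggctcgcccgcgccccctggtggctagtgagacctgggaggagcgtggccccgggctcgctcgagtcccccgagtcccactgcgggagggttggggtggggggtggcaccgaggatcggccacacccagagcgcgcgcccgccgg

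The *Bcl2*, *Bcl2l11* and *Bbc3* windows were rich in G and C (74.8%, 72.0% and 72.4%), whereas the *Bcl2l1* window had 47.6%, against a median of 52.4% over all windows. FOXO factors are known to act on BH3-only genes. Their motif was found at bases −227 to −221 from a *Bcl2l11* start, on the strand opposite to the gene, and at bases −167 to −161 from a *Bbc3* start. It was held by 2 of the 15 windows and by 3.65% of all 32851 windows. The printed windows of *Bcl2l11* and *Bbc3* were chosen because they hold this motif, and the other windows of these genes lacked it. Searched on both strands, the NF-kB motif GGGNNTTCC was present in 1 window each of *Bcl2l1* and *Bbc3* and in 5.82% of all windows. The E-box CACGTG was present in windows of *Bax* and *Bbc3* (7.15% of all), the E2F motif TTTNNCGC in 1 of *Bcl2l1* (5.17%) and the p53 decamer in that of *Bax* (8.36%). Matches other than FOXO lay in windows that are not printed. No matches of different motifs overlapped. No match to the cAMP response element TGACGTCA (1.79% of all windows), the AP-1 motif TGANTCA (7.81%), the composite ATF4 motif TGATGNAAN (3.95%) or the STAT motif TTCNNNGAA (8.30%) was found in the 15 windows. These matches describe the letters and not binding.

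In untreated cells the effectors and *Mcl1* were the most abundant transcripts of the group. Per kilobase of merged exons, levels in CTRL were 134 ± 5.7 cpm for *Bak1*, 109 ± 16 for *Mcl1* and 99.7 ± 7.6 for *Bax* (SD, n = 3), and the ranges of *Mcl1* and *Bax* overlapped. *Bcl2l1* (27.4 ± 0.091) and *Bid* (22.4 ± 4.1) followed, and then *Pmaip1* (11.0 ± 0.53), *Bad* (8.89 ± 0.10) and *Bbc3* (5.70 ± 0.66). *Bcl2l11* (4.01 ± 0.22) and *Bcl2* (3.78 ± 0.16) were lowest and overlapped. When levels were divided by the longest transcript instead, *Bax* came first at 143 ± 11, before *Bak1* at 135 ± 5.7 and *Mcl1* at 109 ± 16. With VLDL-sized particles *Bid* (21.1 ± 2.5) lay above *Bcl2l1* (14.3 ± 1.5) without overlap, and *Bcl2l11* (5.26 ± 0.28) above *Bbc3* (4.58 ± 0.72) with overlap. With CHYL-sized particles the same pairs stood at 21.8 ± 1.3 and 17.0 ± 2.6, and at 4.66 ± 0.49 and 4.10 ± 0.52.

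VLDL-sized particles lowered the anti-apoptotic *Bcl2* and *Bcl2l1* and raised the BH3-only gene *Bcl2l11*, as tested with limma on voom-weighted log2 cpm. These 3 of the 10 members passed an adjusted p of 0.05, beside a background of 35.6% of all genes tested, so that the share of members that passed was no larger than that of genes at large. The 2 that fell stand beside a background of 17.9% lower and the 1 that rose beside 17.8% higher. CHYL-sized particles lowered *Bcl2*, *Bcl2l1* and *Bbc3* and raised *Bax*, which is 4 of 10 beside a background of 25.7% (13.0% lower, 12.7% higher). Groups did not overlap for 4 members with VLDL-sized (background 47.4%) and for 5 with CHYL-sized particles (background 41.7%). The median log2 fold change of the members was −0.09 and −0.07, and that of all genes tested was −0.0003 and 0.0013, for VLDL-sized and CHYL-sized particles. Without replicate 3, 5 members passed with VLDL-sized (*Mcl1* and *Bax* in addition, both higher) and 6 with CHYL-sized particles (*Mcl1* and *Bcl2l11* in addition, both higher), beside backgrounds of 42.6% and 32.8% in that fit. The comparisons with VLDL-sized and with CHYL-sized particles share their control libraries. RNA was taken from whole cultures, so that less RNA per cell and fewer cells expressing a gene cannot be told apart.

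**Figure D1:**
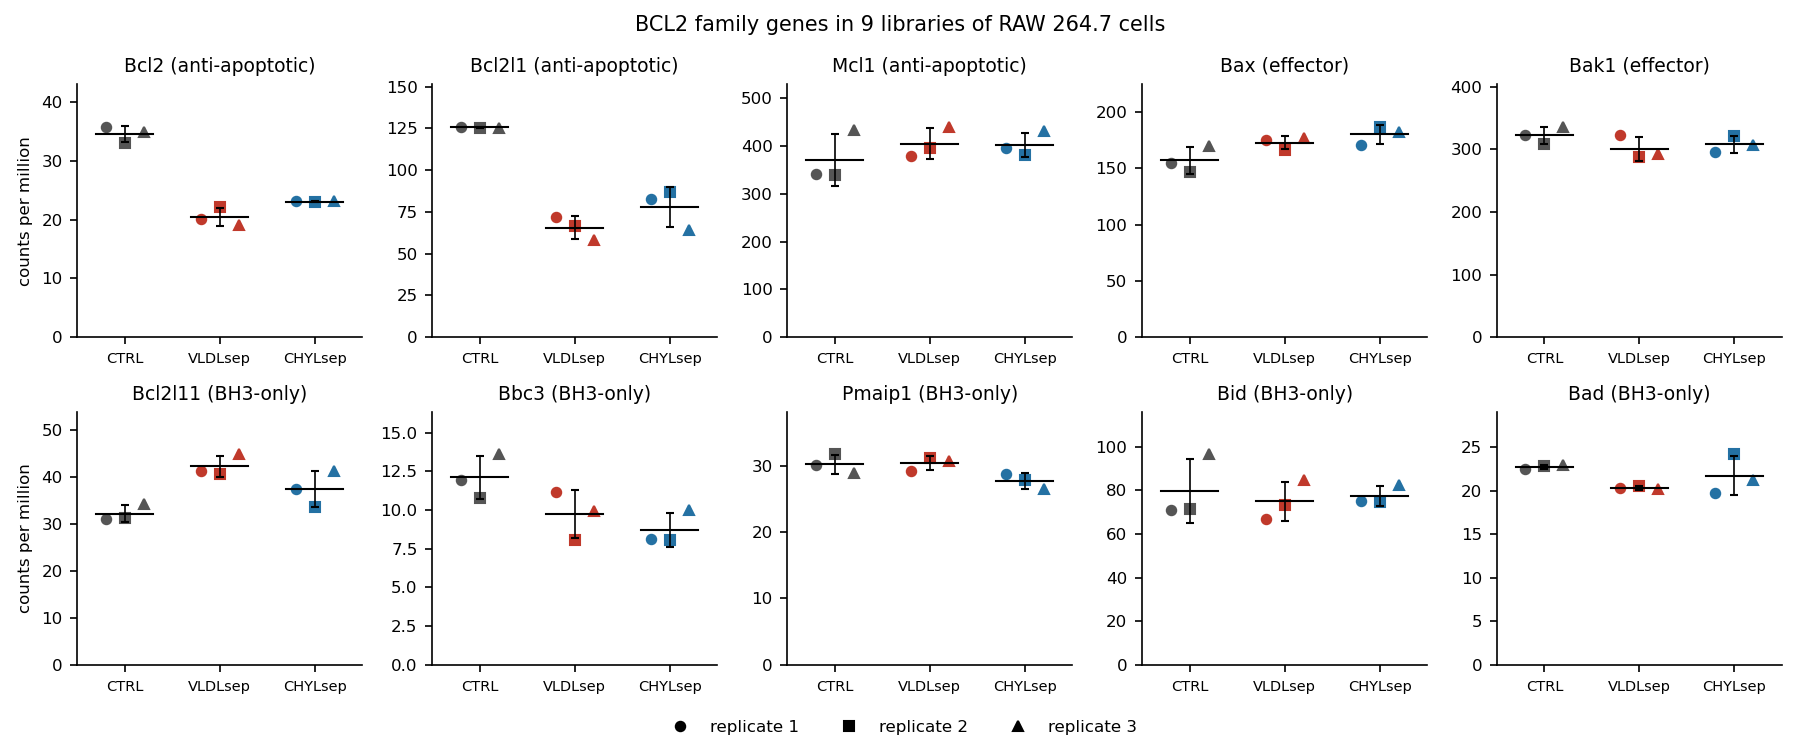
Level of each of the 10 genes in counts-per-million (vertical axes from 0) in the 3 libraries of CTRL, VLDLsep and CHYLsep. Symbols mark the replicate number, horizontal lines the mean and bars the SD (n = 3); *Bcl2* and *Bcl2l1* are lower in each treated library than in each control library, and *Bcl2l11* is higher in each VLDLsep library than in each control library.

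*Bcl2* (ENSMUSG00000057329, chr1:106538178-106714274, minus strand, GRCm38) encodes the founding anti-apoptotic protein of the family, which sits in the outer mitochondrial and endoplasmic reticulum membranes. Its level was 35.8, 33.0 and 34.9 cpm in CTRL replicates 1 to 3, 20.2, 22.1 and 19.1 cpm with VLDL-sized and 23.1, 22.9 and 23.1 cpm with CHYL-sized particles. Each treated library lay below each control library. *Bcl2* fell by 40.9% with VLDL-sized particles (log2 fold change −0.76, SE 0.07, adjusted p = 1.72e-05). With CHYL-sized particles it fell by 33.2% (log2 fold change −0.58, SE 0.07, adjusted p = 0.000138). A total of 4.96% of the genes tested had a lower log2 fold change with VLDL-sized and 5.58% with CHYL-sized particles. Both falls passed the test in 14 of 14 alternative analyses, without replicate 3 too (−0.70 and −0.58). Its exons share 558 bases with an antisense transcript, D630008O14Rik, and whether the libraries kept strand is not given in the sources used here.

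*Bcl2l1* (ENSMUSG00000007659, chr2:152780668-152831728, minus strand) encodes BCL-XL, a close relative of BCL2 that also binds BAX, and a shorter pro-apoptotic splice form that gene-level counts do not separate. It was measured at 126, 125 and 125 cpm in CTRL, at 72.0, 66.4 and 58.1 cpm with VLDL-sized and at 82.9, 86.6 and 64.1 cpm with CHYL-sized particles. The control libraries were nearly equal, and again no treated library reached them. It fell by 48.0% with VLDL-sized particles (log2 fold change −0.94, SE 0.11, adjusted p = 7.55e-05). With CHYL-sized particles it fell by 38.5% (−0.70, SE 0.10, adjusted p = 0.000768). A lower log2 fold change was seen for 3.11% and 3.79% of the genes tested. Both falls passed in 14 of 14 alternatives and were −0.86 and −0.57 without replicate 3. In both treated groups the replicate 3 library was the lowest.

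*Mcl1* (ENSMUSG00000038612, chr3:95658788-95663176, plus strand) encodes an anti-apoptotic protein of very short life, which is made and degraded rapidly. Its level was 342, 339 and 435 cpm in CTRL, 379, 397 and 441 cpm with VLDL-sized and 396, 381 and 431 cpm with CHYL-sized particles. Replicate 3 was highest in each group, and that of CTRL lay within the VLDL-sized range and above all CHYL-sized libraries. The log2 fold change was 0.13 (SE 0.10, adjusted p = 0.324) with VLDL-sized and 0.12 (SE 0.10, adjusted p = 0.398) with CHYL-sized particles, with 95% intervals of −0.08 to 0.35 and −0.09 to 0.34. The result depended on how the replicates were handled. Without control replicate 3 the values were 0.25 (adjusted p = 0.0246) and 0.24 (adjusted p = 0.0388). Without replicate 3 in all groups they were 0.19 (adjusted p = 0.00341) and 0.19 (adjusted p = 0.00446). With VLDL-sized particles *Mcl1* also passed with all libraries kept and a replicate block, which makes 3 of 14 alternatives. With CHYL-sized particles it passed in 2 of 14.

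Within the summed level per kilobase of the 3 anti-apoptotic members, *Mcl1* made up 77.6% ± 2.4 in CTRL, 87.7% ± 1.9 with VLDL-sized and 85.7% ± 2.4 with CHYL-sized particles (SD, n = 3). The share of *Bcl2l1* was 19.7% ± 2.1, 10.6% ± 1.7 and 12.4% ± 2.3, and that of *Bcl2* was 2.72% ± 0.29, 1.66% ± 0.19 and 1.84% ± 0.060. These shares are of transcripts, rest on the length of merged exons and were not tested. Divided by the longest transcript, levels in CTRL were 109 for *Mcl1*, 48.9 for *Bcl2l1* and 4.81 for *Bcl2*. With VLDL-sized particles they were 119, 25.5 and 2.84. The share of *Bcl2l1* is larger, and that of *Mcl1* smaller, on that measure.

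*Bax* (ENSMUSG00000003873, chr7:45461697-45466898, minus strand) encodes the effector that waits mostly in the cytosol and moves to mitochondria when activated. It was found at 155, 146 and 170 cpm in CTRL, at 175, 166 and 177 cpm with VLDL-sized and at 171, 187 and 182 cpm with CHYL-sized particles. The VLDL-sized and control libraries overlapped, whereas the lowest CHYL-sized library lay just above the highest control. *Bax* rose by 14.7% with CHYL-sized particles (log2 fold change 0.20, SE 0.06, adjusted p = 0.0398), and its log2 fold change with VLDL-sized particles was 0.14 (SE 0.06, adjusted p = 0.112). The rise with CHYL-sized particles passed in 7 of 14 alternatives, with an adjusted p from 0.00359 to 0.15, and failed with library size only, no filter or only the groups compared. It also failed without CTRL replicate 1 (0.19, adjusted p = 0.113), CTRL replicate 2 (0.15, adjusted p = 0.15), CHYLsep replicate 2 (0.17, adjusted p = 0.129) or CHYLsep replicate 3 (0.19, adjusted p = 0.0958). Without CTRL replicate 3 the value with VLDL-sized particles passed (0.20, adjusted p = 0.0252). It also passed without replicate 3 in all groups and with a replicate block, which makes 3 of 14 alternatives.

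*Bak1* (ENSMUSG00000057789, chr17:27019810-27029009, minus strand) encodes the effector that resides in the mitochondrial membrane. Levels were 323, 309 and 336 cpm in CTRL, 322, 287 and 292 cpm with VLDL-sized and 295, 322 and 306 cpm with CHYL-sized particles. The groups overlapped. Its log2 fold changes were −0.10 (SE 0.06, adjusted p = 0.206) and −0.07 (SE 0.06, adjusted p = 0.441), and the 95% intervals ran from −0.23 to 0.03 and from −0.20 to 0.06.

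*Bcl2l11* (ENSMUSG00000027381, chr2:128126038-128162547, plus strand) encodes BIM, a BH3-only protein that binds each of the anti-apoptotic members and can activate BAX directly. It was present at 31.0, 31.2 and 34.2 cpm in CTRL, at 41.3, 40.6 and 44.8 cpm with VLDL-sized and at 37.4, 33.6 and 41.4 cpm with CHYL-sized particles. Each VLDL-sized library lay above each control, whereas CHYLsep replicate 2 lay within the control range. *Bcl2l11* rose by 31.4% with VLDL-sized particles (log2 fold change 0.39, SE 0.08, adjusted p = 0.00352), and this rise passed in 14 of 14 alternatives. With CHYL-sized particles the log2 fold change was 0.22 (SE 0.08, adjusted p = 0.0826), and it passed in 3 of 14 alternatives, among them without CHYLsep replicate 2 (0.29, adjusted p = 0.0305) and without replicate 3 in all groups (0.19, adjusted p = 0.0485). The splice forms of BIM were not resolved.

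*Bbc3* (ENSMUSG00000002083, chr7:16308393-16318205, plus strand) encodes PUMA, a BH3-only protein induced by p53. It was the least counted member, with 179 to 317 counts in a library. Levels were 11.9, 10.8 and 13.6 cpm in CTRL, 11.1, 8.09 and 9.96 cpm with VLDL-sized and 8.11, 8.06 and 9.99 cpm with CHYL-sized particles. The CHYL-sized libraries all lay below the control libraries, and VLDLsep replicate 1 lay within their range. *Bbc3* fell by 28.0% with CHYL-sized particles (log2 fold change −0.47, SE 0.14, adjusted p = 0.0303), and its log2 fold change with VLDL-sized particles was −0.32 (SE 0.14, adjusted p = 0.0938). The value with VLDL-sized particles passed in 2 of 14 alternatives, with library size only and with a replicate block. The fall with CHYL-sized particles passed in 10 of 14 alternatives and failed without CTRL replicate 1 (−0.48, adjusted p = 0.0719), CTRL replicate 3 (−0.39, adjusted p = 0.0817), CHYLsep replicate 1 (−0.43, adjusted p = 0.101) or CHYLsep replicate 2 (−0.42, adjusted p = 0.103).

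*Pmaip1* (ENSMUSG00000024521) encodes NOXA, a BH3-only protein that binds mainly MCL1. It was measured at 30.1, 31.7 and 28.8 cpm in CTRL, at 29.2, 31.2 and 30.8 cpm with VLDL-sized and at 28.8, 27.9 and 26.4 cpm with CHYL-sized particles. The VLDL-sized libraries lay within the control range, and the CHYL-sized libraries lay just below it. The log2 fold changes were 0.01 (95% interval −0.13 to 0.15, adjusted p = 0.929) and −0.12 (−0.27 to 0.02, adjusted p = 0.185).

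*Bid* (ENSMUSG00000004446, chr6:120891930-120916853, minus strand) encodes the BH3-only protein that caspase-8 cleaves, which joins the death receptor pathway to mitochondria. Levels were 70.9, 71.5 and 96.4 cpm in CTRL, 67.0, 73.1 and 84.5 cpm with VLDL-sized and 75.2, 74.4 and 82.5 cpm with CHYL-sized particles. Replicate 3 was highest in each group, and the groups overlapped. The log2 fold changes were −0.08 (95% interval −0.34 to 0.19, adjusted p = 0.648) and −0.03 (−0.29 to 0.24, adjusted p = 0.899), and without CTRL replicate 3 they were 0.07 and 0.12. Exons of *Bid* share 628 bases with those of *Bcl2l13* on the other strand.

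*Bad* (ENSMUSG00000024959, chr19:6941861-6951899, plus strand) encodes a BH3-only protein that survival kinases such as AKT hold inactive by phosphorylation. It was found at 22.4, 22.8 and 23.0 cpm in CTRL, at 20.3, 20.6 and 20.2 cpm with VLDL-sized and at 19.7, 24.2 and 21.2 cpm with CHYL-sized particles. The VLDL-sized libraries all lay below the controls, but the log2 fold change of −0.16 (SE 0.08) did not pass the test (adjusted p = 0.134). With CHYL-sized particles it was −0.07 (SE 0.08, adjusted p = 0.541). Exons of *Bad* share 524 bases with those of *Gpr137*, those of *Bak1* share 437 and 177 bases with annotated copies of *Ggnbp1*, both on the other strand, and those of *Bax* share 192 bases with Gm45808 on the same strand.

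The balance between chosen pairs of members was followed as ratios of their counts within a library, which do not depend on the scaling between libraries. Of the BH3-only members only *Bcl2l11* was used. *Bbc3*, *Pmaip1*, *Bid* and *Bad*, which did not pass as higher with either particle, were left out. So was the anti-apoptotic *Bcl2l2* of the wider family, which rose with both particles, and the ratios therefore do not describe the whole family. The ratio of *Bcl2l1* to *Bax* was 0.813, 0.858 and 0.737 in CTRL, 0.412, 0.400 and 0.328 with VLDL-sized and 0.485, 0.463 and 0.352 with CHYL-sized particles. No treated library overlapped a control. *Bcl2l11* to *Bcl2* stood at 0.866, 0.945 and 0.982 in CTRL, at 2.05, 1.83 and 2.35 with VLDL-sized and at 1.62, 1.46 and 1.79 with CHYL-sized particles. This ratio was therefore higher in each treated library than in each control, and it was higher in each VLDL-sized library than in each CHYL-sized library. The mean ratio of *Bcl2l11* to *Bcl2l1* was 0.256 ± 0.015, 0.652 ± 0.11 and 0.495 ± 0.13 (SD, n = 3). That of *Bcl2l11* to *Mcl1* moved less, at 0.087 ± 0.0074, 0.104 ± 0.0041 and 0.093 ± 0.0041. It was higher in each VLDL-sized library than in each control, and the CHYL-sized libraries overlapped the controls. In contrast, the ratio of *Mcl1* to *Bak1*, a pair known to bind each other, was 1.15 ± 0.13, 1.36 ± 0.17 and 1.31 ± 0.12, and the groups overlapped. The ratios were not tested, since they restate the members' own counts.

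**Figure D2:**
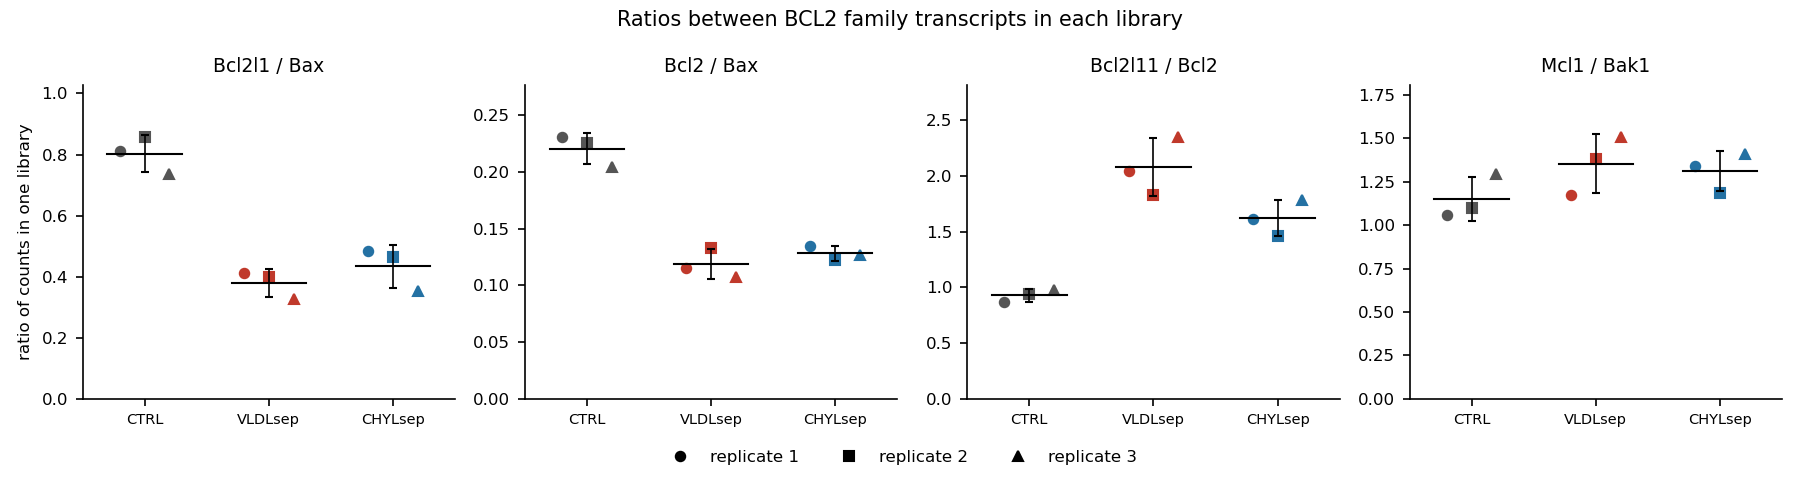
Ratios of the counts of paired members within each library (vertical axes from 0, no unit) for CTRL, VLDLsep and CHYLsep, with the mean and SD (n = 3) and symbols for the replicate number. *Bcl2l1* to *Bax* and *Bcl2* to *Bax* are lower, and *Bcl2l11* to *Bcl2* is higher, in each treated library than in each control, whereas *Mcl1* to *Bak1* overlaps between groups.

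The direct comparison of the particles showed no member past the threshold, and none of the 12637 genes passed in limma (background 0%). At an unadjusted p of 0.05, 3 members (*Bcl2*, *Bcl2l1* and *Bcl2l11*) and 813 genes (6.43%) passed, and 24 genes passed in DESeq2. For *Bcl2* the log2 difference of VLDL-sized over CHYL-sized was −0.18 (95% interval −0.34 to −0.01, adjusted p = 0.742). For *Bcl2l1* it was −0.24 (SE 0.11, adjusted p = 0.775) and for *Bcl2l11* 0.18 (SE 0.08, adjusted p = 0.775). The other members lay between −0.09 for *Bad* and 0.15 for *Bbc3*, and the widest interval, that of *Bbc3*, ran from −0.17 to 0.48. Without replicate 3, *Bcl2l1* was lower with VLDL-sized than with CHYL-sized particles (−0.29, adjusted p = 0.0159). It passed in only this 1 of 14 alternatives, and its adjusted p reached 0.999 among the others. The missed threshold does not show that the particles acted alike, and the dose of the CHYL-sized particles is that of the labels.

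Among other genes of the family, *Bnip3* and *Bcl2l2* rose with both particles. Of 15 such genes listed, 10 could be tested: 2 rose and 2 fell with VLDL-sized particles, and 2 rose and none fell with CHYL-sized particles. The backgrounds were 35.6% and 25.7%. Their median log2 fold change was −0.16 and −0.18. *Bnip3*, which encodes a mitochondrial BH3-like protein and mitophagy receptor, was present at 22.1, 24.5 and 19.5 cpm in CTRL, at 46.7, 41.9 and 41.0 cpm with VLDL-sized and at 37.7, 42.5 and 39.1 cpm with CHYL-sized particles. Its groups were clearly separated, with log2 fold changes of 0.98 (SE 0.09, adjusted p = 2.11e-05) and 0.85 (SE 0.09, adjusted p = 9.34e-05). *Bcl2l2*, which encodes the anti-apoptotic BCL-W, was present at 25.4, 24.0 and 23.9 cpm in CTRL, at 35.7, 32.2 and 31.0 cpm with VLDL-sized and at 34.7, 32.8 and 31.5 cpm with CHYL-sized particles. It rose by 0.43 with each particle on the log2 scale (SE 0.07, adjusted p = 0.000954 and 0.00142), in the direction opposite to *Bcl2* and *Bcl2l1*. The rises of *Bnip3* and *Bcl2l2* passed in 14 of 14 alternatives for both particles. Exons of *Bcl2l2* share 594 bases with the read-through gene Gm20521, and those of *Bnip3* share 504 bases with an antisense transcript, Gm45507.

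The BH3-only gene *Bmf* was lower with VLDL-sized particles (3.61, 2.79 and 1.14 cpm, against 5.38, 5.94 and 3.73 cpm in CTRL), with a log2 fold change of −1.12 (SE 0.38, adjusted p = 0.0392). With CHYL-sized particles it was at 3.81, 4.28 and 2.23 cpm (−0.57, SE 0.34, adjusted p = 0.256). *Bcl2l12* was at 2.39, 2.16 and 2.26 cpm with VLDL-sized particles and at 3.55, 3.03 and 3.43 cpm in CTRL (−0.55, SE 0.18, adjusted p = 0.0359). Both are low transcripts, and *Bmf* had as few as 25 counts in a library. The fall of *Bmf* passed in 9 of 14 alternatives and failed with no filter (adjusted p = 0.0505) and without CTRL replicate 1 (−1.06, adjusted p = 0.0959), CTRL replicate 2 (−0.98, adjusted p = 0.105), VLDLsep replicate 2 (−1.27, adjusted p = 0.0625) or VLDLsep replicate 3 (−0.63, adjusted p = 0.130). That of *Bcl2l12* passed in 6 of 14 (−0.64 to −0.50, adjusted p up to 0.104) and failed in DESeq2, with no filter, without CTRL replicate 1 or 3, without any 1 of the VLDL-sized libraries and without replicate 3 in all groups. With CHYL-sized particles *Bcl2l12* had a log2 fold change of −0.23 (SE 0.17, adjusted p = 0.355). Exons of *Bcl2l12* share 572 bases with an antisense transcript, Gm15545, and 88 bases with *Irf3* on the other strand. *Bnip3l* and *Bcl2l13*, which encode mitophagy receptors, did not pass with either particle, at 0.13 and −0.03 with VLDL-sized and 0.12 and 0.00 with CHYL-sized particles. Nor did *Bik* (−0.37 and −0.21), *Bcl2l14* (−0.25 and −0.38), *Bcl2a1b* (−0.07 and −0.14) or *Bcl2a1d* (−0.36 and −0.29). The *Bcl2a1* genes are near-identical copies, so that their split of counts is uncertain. *Bok* had no count in any library, which allows up to 0.137 cpm at 3 counts, and *Bcl2l10*, *Hrk*, *Bcl2l15* and *Bcl2a1a* had at most 7.07 counts.

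**Figure D3:**
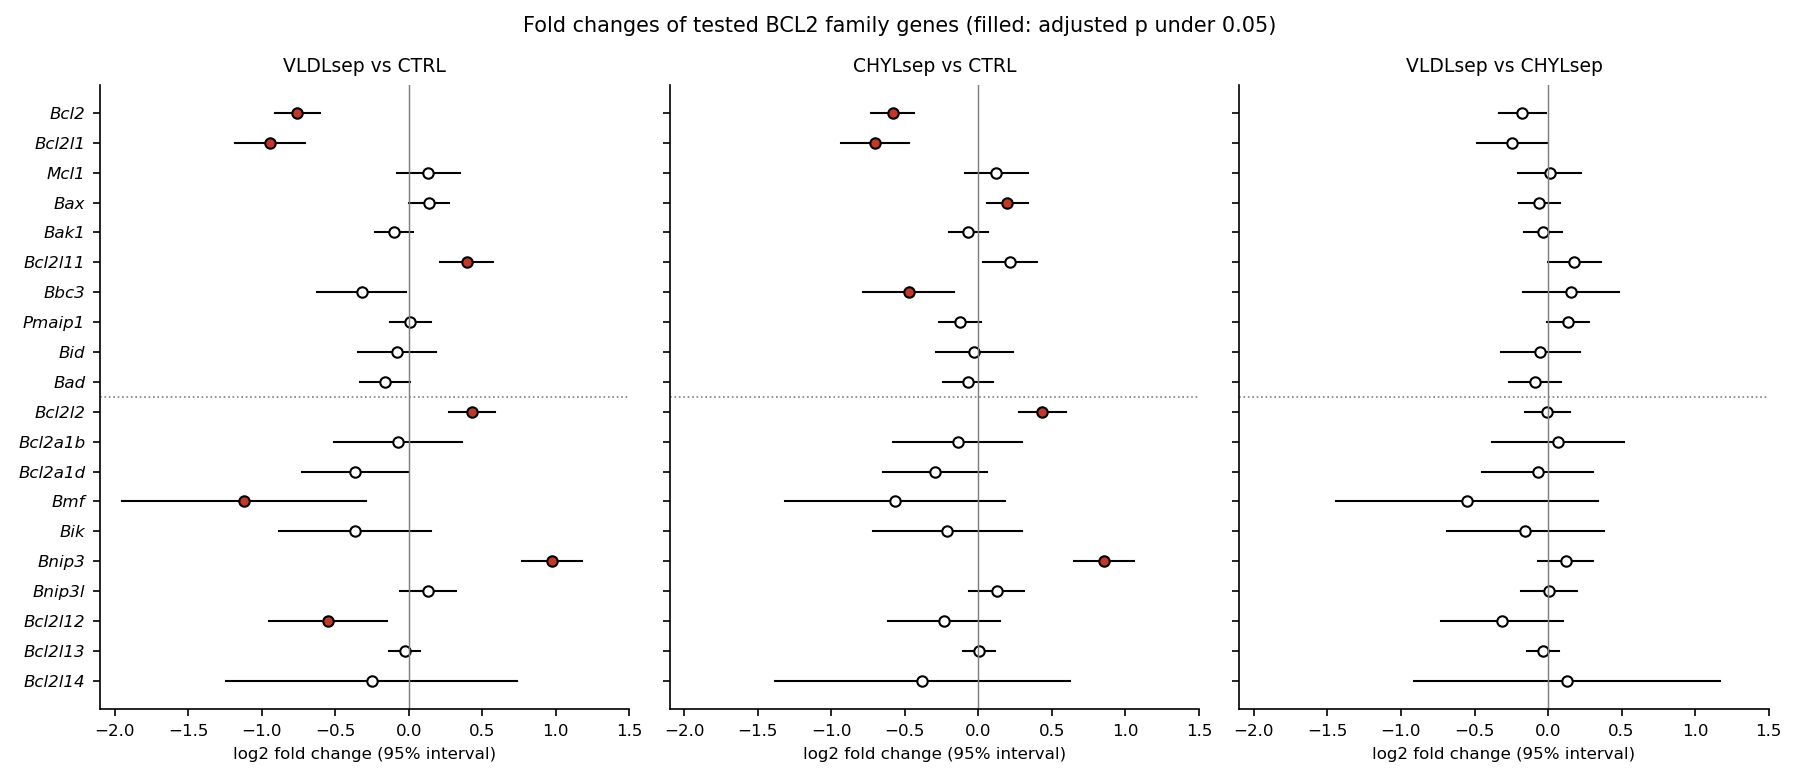
Log2 fold changes (points) with 95% intervals (lines) of the 20 tested BCL2 family genes for VLDLsep against CTRL, CHYLsep against CTRL and VLDLsep against CHYLsep, with the 10 members above the dotted line. Filled points passed an adjusted p of 0.05 in limma; *Bcl2*, *Bcl2l1*, *Bcl2l2* and *Bnip3* are filled for both particles against CTRL and no point is filled for one particle against the other.

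Downstream of BAX and BAK, cytochrome c (*Cycs*) and *Vdac3* rose with both particles. Of 18 genes tested, 4 rose and 3 fell with VLDL-sized particles, and 2 rose and 2 fell with CHYL-sized particles, beside backgrounds of 35.6% and 25.7%. Their median log2 fold change was −0.014 and 0.0029. *Casp6*, which encodes a caspase, decreased from 9.80 ± 1.6 to 6.46 ± 1.2 cpm (SD, n = 3) with VLDL-sized particles (−0.60, adjusted p = 0.0114) and was at 7.28 ± 0.50 cpm with CHYL-sized particles (−0.42, adjusted p = 0.0643). *Cycs* rose from 179.98 ± 6.2 to 214 ± 7.4 and 208 ± 9.2 cpm (log2 fold change 0.25 and 0.21, adjusted p = 0.00342 and 0.0127), the latter failing with library size only and without CTRL replicate 1 or CHYLsep replicate 3 (adjusted p up to 0.0595). *Vdac3*, a channel of the outer mitochondrial membrane, rose from 131 ± 5.3 to 171 ± 9.9 and 159.9 ± 6.0 cpm (0.39 and 0.29, adjusted p = 0.000399 and 0.00365).

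In the death receptor pathway, 4 of 11 tested genes rose and 3 fell with VLDL-sized particles, and 2 rose and 2 fell with CHYL-sized particles (background 17.8% higher and 17.9% lower, and 12.7% higher and 13.0% lower). Their median log2 fold change was −0.0093 and 0.068. *Fas*, the receptor of FAS ligand, was at 3.51 ± 1.8 cpm in CTRL, 6.32 ± 0.93 with VLDL-sized (log2 fold change 0.97, adjusted p = 0.0254) and 5.81 ± 0.92 with CHYL-sized particles (0.85, adjusted p = 0.0606). The rise passed in 11 of 14 alternatives and failed without CTRL replicate 1 (0.58, adjusted p = 0.0958), CTRL replicate 2 (0.98, adjusted p = 0.0641) or VLDLsep replicate 3 (0.86, adjusted p = 0.0685). *Tnfrsf1b*, which encodes TNF receptor 2, a receptor without a death domain, rose from 138 ± 40 to 263 ± 40 and 249.95 ± 34 cpm (0.96 and 0.88, adjusted p = 0.00184 and 0.00448). The adaptor *Fadd* fell from 32.1 ± 2.3 to 24.2 ± 1.0 and 25.1 ± 1.3 cpm (−0.41 and −0.36, adjusted p = 0.00155 and 0.00493). *Tnf* was at 26.1 ± 2.2, 20.4 ± 1.6 and 23.6 ± 3.3 cpm and fell with VLDL-sized particles (−0.35, adjusted p = 0.0290). With CHYL-sized particles the log2 fold change was −0.15 (adjusted p = 0.338), and the difference between particles did not pass (adjusted p = 0.820). The fall failed without CTRL replicate 1 or 3 or VLDLsep replicate 2 or 3 (−0.36 to −0.29, adjusted p up to 0.0916).

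Transcription factors known to act on BCL2 family genes moved in both directions: 5 of 19 rose and 4 fell with VLDL-sized particles, and 5 rose and 3 fell with CHYL-sized particles (background 17.8% and 17.9%, and 12.7% and 13.0%). Their median log2 fold change was −0.027 and −0.069. *Ddit3* (CHOP) increased from 5.38 ± 1.5 cpm in CTRL to 18.9 ± 1.6 with VLDL-sized (log2 fold change 1.85, adjusted p = 4.13e-05) and 10.1 ± 2.2 with CHYL-sized particles (0.92, adjusted p = 0.00790). The count table holds 2 identifiers for *Ddit3*, and these values are of ENSMUSG00000025408 alone. *Atf3*, another stress-induced factor, increased from 143 ± 63 to 420.4 ± 60 and 327 ± 75 cpm (1.64 and 1.26, adjusted p = 0.00055 and 0.00432). *E2f1*, a driver of the cell cycle, decreased from 78.9 ± 1.1 to 53.5 ± 1.3 and 57.2 ± 3.0 cpm (−0.56 and −0.46, adjusted p = 1.91e-05 and 0.000109). *Stat5a*, which relays cytokine signals and can raise *Bcl2l1*, was at 13.9 ± 0.75, 10.5 ± 2.0 and 11.4 ± 0.35 cpm (−0.42, adjusted p = 0.0234, and −0.29, adjusted p = 0.110). Its fall with VLDL-sized particles failed without CTRL replicate 1, CTRL replicate 2 or VLDLsep replicate 3 (−0.40 to −0.25, adjusted p up to 0.0736). Of the factors whose motif was found in the 15 windows searched, *Foxo1*, *Foxo3* and *Foxo4* did not pass with either particle (−0.12 to 0.10). Nor did *Rela* (−0.11 and −0.12) or *Myc* (−0.70 and −0.25), whereas *Nfkb1* fell with both (−0.35 and −0.31, adjusted p = 0.00165 and 0.00561). This is not a full account of such factors. *Mitf*, also on the list, rose from 31.5 ± 0.39 to 47.6 ± 1.5 cpm with VLDL-sized particles (0.59, adjusted p = 1.58e-05). With CHYL-sized particles *Mitf* was at 48.8 ± 1.4 cpm. These genes were named after their values were seen.

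Of the p53 targets outside the family, 10 of 20 rose and 4 fell with VLDL-sized particles, and 8 rose and 4 fell with CHYL-sized particles, with a median log2 fold change of 0.26 and 0.15. Of all genes tested, 17.8% rose and 17.9% fell with VLDL-sized, and 12.7% rose and 13.0% fell with CHYL-sized particles. *Plk2*, a stress-induced kinase, rose from 110.5 ± 42 to 409 ± 94 and 312 ± 98 cpm (1.93 and 1.52, adjusted p = 0.000259 and 0.00189). *Gadd45a*, a growth arrest and DNA damage gene, rose from 4.34 ± 0.63 to 15.3 ± 3.5 and 11.8 ± 3.0 cpm (1.80 and 1.42, adjusted p = 0.000208 and 0.00186). *Sesn1*, which encodes a sestrin that restrains mTORC1, fell from 32.5 ± 9.7 to 12.7 ± 3.0 and 14.1 ± 3.9 cpm (−1.34 and −1.20, adjusted p = 0.00410 and 0.00918). *Phlda3*, which encodes an inhibitor of AKT, fell from 20.1 ± 2.9 to 11.9 ± 1.7 and 14.0 ± 1.1 cpm (−0.75 and −0.51, adjusted p = 0.00127 and 0.0138), the latter failing without CTRL replicate 1 (adjusted p = 0.0543). *Trp53* itself, on the list of factors, fell from 261 ± 29 to 198 ± 13 and 216 ± 15 cpm (−0.39 and −0.27, adjusted p = 0.00421 and 0.0368). The fall with CHYL-sized particles failed without CTRL replicate 1 or 3 or CHYLsep replicate 1 or 2 (−0.28 to −0.19, adjusted p up to 0.123). Among the 10 members, *Bax*, *Bbc3* and *Pmaip1* are known p53 targets, though this is not a full account. These genes had log2 fold changes from −0.32 to 0.14 with VLDL-sized particles, and none passed. With CHYL-sized particles *Bax* rose, *Bbc3* fell and *Pmaip1* did not pass.

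Of the regulators of the stability and activity of the proteins, 9 of 20 rose and 2 fell with VLDL-sized particles, and 7 rose and 1 fell with CHYL-sized particles, against the same backgrounds of 17.8% and 17.9%, and of 12.7% and 13.0%. Their median log2 fold change was 0.15 and 0.083. *Pim1*, a kinase that phosphorylates BAD, rose from 24.1 ± 5.0 to 44.7 ± 2.7 and 40.3 ± 8.1 cpm (0.91 and 0.74, adjusted p = 0.00105 and 0.00577). *Mapk9* (JNK2), whose kinase can phosphorylate several family members, rose from 62.3 ± 2.5 to 94.1 ± 2.2 and 87.8 ± 1.7 cpm (0.60 and 0.50, adjusted p = 8.55e-06 and 5.17e-05). *Dynll2*, a dynein light chain that binds BMF, fell from 158 ± 4.4 to 135 ± 2.8 and 135 ± 4.2 cpm (−0.23 with both, adjusted p = 0.00244 and 0.00370). The 14-3-3 gene *Ywhah* was at 349 ± 22, 309 ± 2.4 and 316 ± 11 cpm (−0.18, adjusted p = 0.0246, and −0.14, adjusted p = 0.0771), and its fall with VLDL-sized particles failed without CTRL replicate 1 or 3 or any 1 of the VLDL-sized libraries (adjusted p up to 0.0699).

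**Figure D4:**
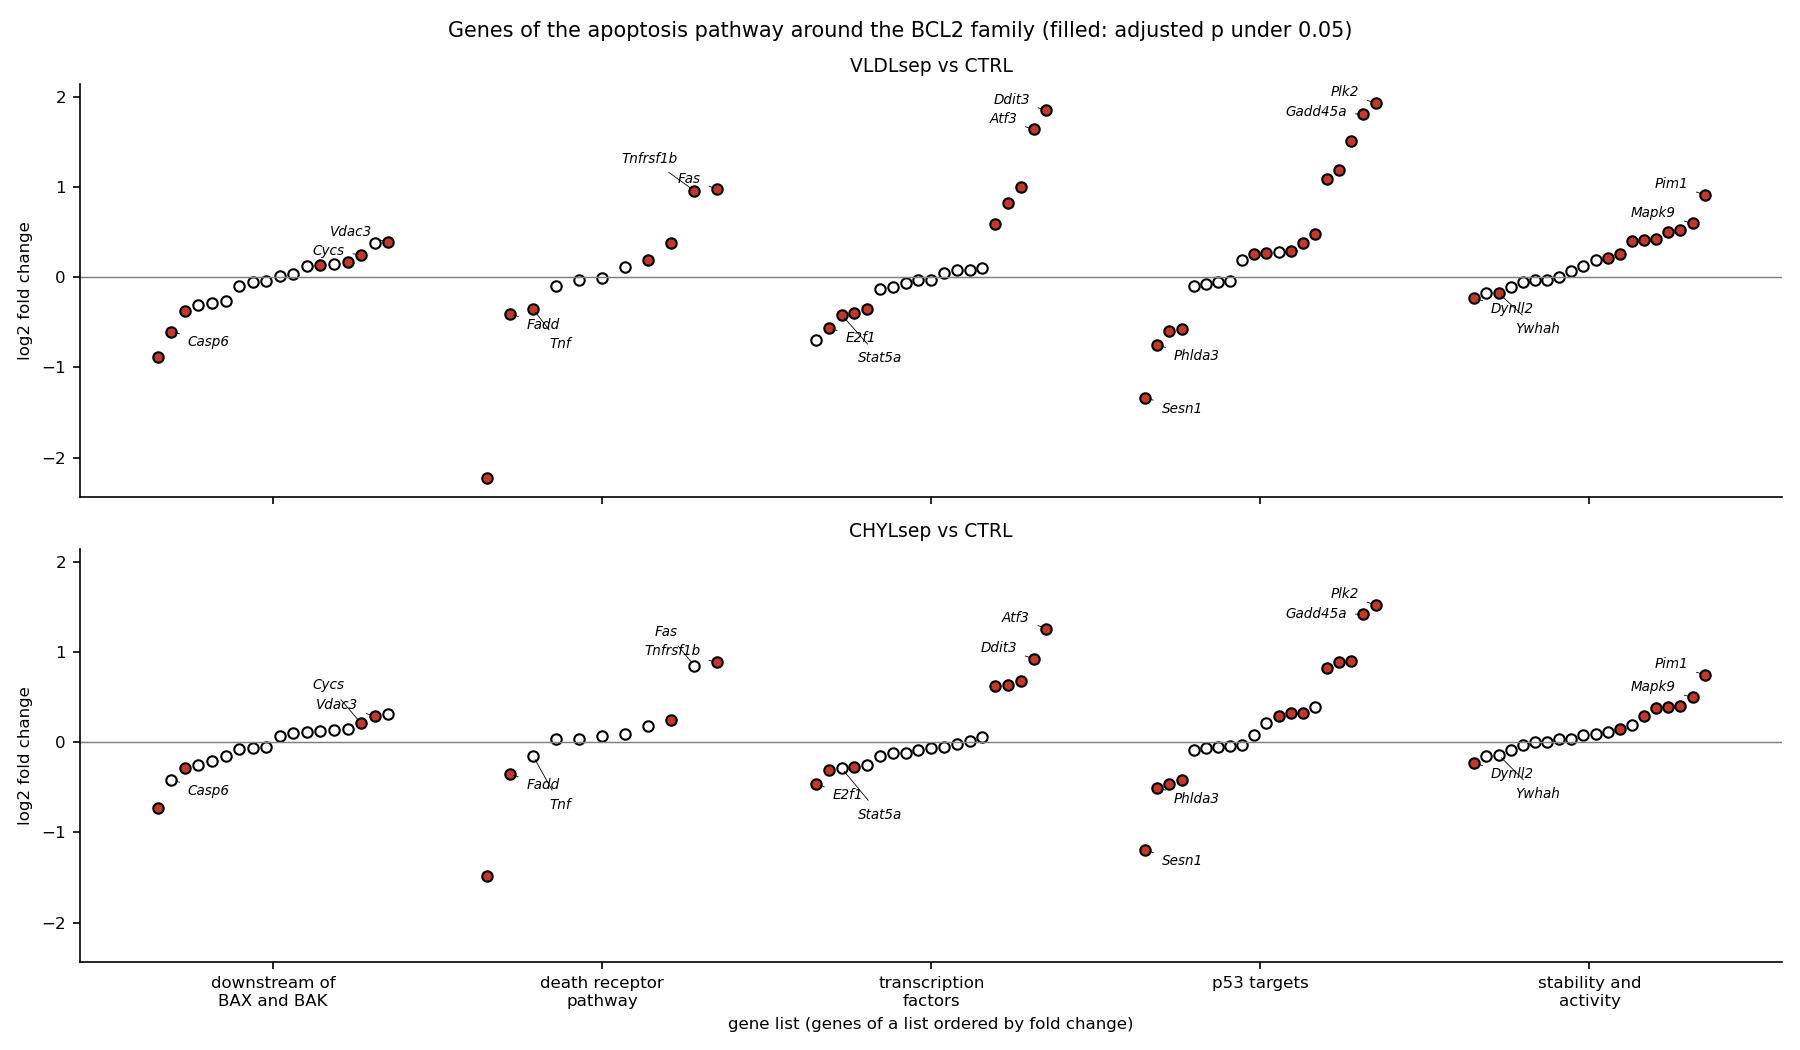
Log2 fold change (vertical axes) of each tested gene of 5 lists around the BCL2 family, for VLDLsep against CTRL and CHYLsep against CTRL, with the genes of a list ordered by fold change. Filled points passed an adjusted p of 0.05 in limma, and the labelled genes are those named in the text for each list by their change with VLDL-sized particles; in the p53 list 10 rise and 4 fall with VLDL-sized particles.

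Genes whose pattern over the 9 libraries was most like that of *Bcl2* were *Hjurp* (a centromere chaperone), *Plk1* (a mitotic kinase) and *Ubash3b*, with root mean square differences of 0.058, 0.060 and 0.061 on the log2 scale after each gene was centred. For *Bcl2l1* they were *Tgfbr2* (a TGF-beta receptor), *Ikzf1* (a haematopoietic transcription factor) and *Tgfbi*, with differences of 0.067, 0.070 and 0.071. *Bcl2* and *Bcl2l1* differed from each other by 0.154, which put *Bcl2l1* at rank 456 among the genes most like *Bcl2*. These distances were taken over libraries that include the treated groups, and they are given as a description.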

How the data were processed

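Per the labels and the methods, RNA from RAW 264.7 cells was sequenced on the BGISEQ-500 platform, mapped by the authors with Salmon 0.14.1 to GENCODE transcripts of GRCm38.p6 and summarized with tximport. Gene-level estimated counts were deposited. The methods state a scaling by length and library size, but 58.3% of the values above 10 were whole numbers, and the counts were treated as unscaled. Symbols and coordinates were taken from GENCODE M21 for 54346 of 54432 identifiers.

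The 12637 genes that exceeded 10 counts in 3 or more libraries were normalized by TMM and tested with limma 3.58.1 and voom (edgeR 4.0.16, R 4.3.3) in 1 model of the 9 libraries without a block, with Benjamini-Hochberg adjustment over all genes and a threshold of 0.05. The counts-per-million (cpm) in the text use the same TMM scaling. For edgeR and DESeq2 counts were rounded. The limma steps were tested on simulated counts in which 200 of 12498 genes were changed. For VLDL-sized particles 88% of these were recovered, with 8 false calls. Far fewer genes were changed there than passed in the data, so that normalization under such a broad change was not tested.

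The members and lists were chosen with earlier results of these data known. Named are all members, all detected genes of the wider family, and from each further list the 2 largest rises and 2 largest falls that passed with VLDL-sized particles and whose higher group averaged 50 counts or more, apart from items that are not reported here. *Trp53*, *Nfkb1*, *Rela*, *Myc*, *Mitf*, the *Foxo* genes and the cell markers fall outside this rule. Likeness was measured for the 2 members with the smallest adjusted p. Alternatives were DESeq2 1.42.0, the quasi-likelihood test of edgeR, library size only, no filter, a filter of 50 counts, only the groups compared, a replicate block, each library left out and replicate 3 left out. Their use on the other named genes was chosen after seeing the data. The floor of 3 counts and the 95% intervals cover the errors named beside them.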

Additional observations from a re-analysis of the deposited data

How the results depend on the processing

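Limits: depth was nearly equal between libraries, and the low genes *Bmf*, *Bik* and *Bcl2l14* are the least precise. Over 14 alternatives for each member and comparison, 379 of 420 values kept their direction and side of the threshold, 16 came to pass, 11 no longer passed and 14 changed sign, none of which passed. Applied after seeing the data to the other named genes that passed, apart from *Mitf* and the cell markers, in the comparisons where they passed, the same alternatives changed no direction.

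Members that passed with VLDL-sized particles were 3, and 6 with library size only (*Bak1*, *Bbc3* and *Bad* in addition, all lower; background 38.1%). With a replicate block they were also 6 (*Mcl1* and *Bax* higher and *Bbc3* lower in addition; background 47.9%), the genes called with CHYL-sized particles rose from 3249 to 4949, and those between the particles from 0 to 147. The labels do not tie same-numbered libraries to each other, although the replicate 3 libraries lay apart from the others in all groups, and pairing was not assumed. Their deviations from the group means correlated at 0.089, 0.099 and 0.217 for VLDL-sized and control, and at 0.098, 0.024 and 0.269 for CHYL-sized and control, and each library correlated best with its own number in the former but not in the latter. Leaving out libraries gave 3 to 5 members with VLDL-sized particles (5 without CTRL replicate 3), 2 to 6 with CHYL-sized particles (2 without CTRL replicate 1) and 0 to 1 between the particles, and 0 to 232 genes between the particles. The share of all genes that passed is not given here for the fits that left out 1 library. Without replicate 3 in all groups that share moved as well, from 35.6% to 42.6% with VLDL-sized and from 25.7% to 32.8% with CHYL-sized particles. The changes in these counts are therefore not read as a result about the members. DESeq2 gave 24 genes between the particles. With library size only, 1507 genes were higher and 3312 lower with VLDL-sized particles (2244 and 2256 with TMM), and 1068 higher and 2514 lower with CHYL-sized particles (1610 and 1639). The cause was not tested.

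Sign changes were small: *Pmaip1* with VLDL-sized particles gave −0.084 with library size only and −0.033 to 0.044 on leaving out libraries, *Bid* gave −0.17 to 0.066 with VLDL-sized, −0.10 to 0.12 with CHYL-sized particles and −0.14 to 0.02 between them, and *Mcl1* between the particles gave −0.0032 with library size only and −0.052 to 0.061 on leaving out libraries.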
